A study of Mus musculus with 24 samples.

Results

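Alk, Ptprz1, Ptn, Mdk and Sdc3 were followed in RNA-seq libraries of sorted cortical cells, as 5 genes among the 39017 in the count tables. Alk and Ptprz1 encode receptors of the secreted growth factors pleiotrophin (Ptn) and midkine (Mdk), and Sdc3 encodes syndecan-3, a cell-surface proteoglycan that binds pleiotrophin. The set was chosen by values of these libraries: in TBR2+ cells Alk had been seen to be lower and Ptprz1 higher in KO than in WT, and the ligands and the remaining receptor were added by function. The KO against WT values of TBR2+ cells are therefore given as a description with no test. All 5 genes were found under a single Ensembl identifier each, and all 5 passed the filter on low counts in every comparison.

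Cells were sorted from embryonic cerebral cortex of the mouse, at stage E15.5. KO libraries carried Emx1Ires-Cre and Prdm16flox/flox, and WT libraries carried Prdm16 flox/flox without Cre, so the floxed allele was shared and Cre was present in KO alone. Emx1-Cre recombines in the dorsal telencephalic lineage, and cells born elsewhere, such as interneurons, are not expected targets. PAX6+ cells are labelled radial glia, TBR2+ cells intermediate progenitors (TBR2 is the product of Eomes), and PAX6-TBR2- cells neurons, with 4 KO and 4 WT libraries in each of the 3 populations, 24 in all. Nothing ties a library to an embryo or litter, so the p-values measure the spread between these libraries, which may be technical. Each population carries a library prefix of its own, and population cannot be told apart from library batch.

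Pleiotrophin and midkine are heparin-binding growth factors that bind the chondroitin sulfate chains of PTPRZ1, a receptor tyrosine phosphatase abundant in radial glia, and have been linked to signalling through the receptor tyrosine kinase ALK. Pleiotrophin binding inactivates the phosphatase, and ALK is among the proteins reported as its substrates. Syndecan-3 binds pleiotrophin through heparan sulfate and is known from growing axons.

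WT PAX6-TBR2- replicate 4 held 30.0 M counts and the other libraries 4.95 to 12.6 M, and 11.3% to 39.3% of these were of mitochondrially encoded genes. Levels are given as CPM, the counts of a gene per M counts of the library, with totals adjusted by the trimmed mean of M-values (TMM) over all 24 libraries. Prdm16 averaged 187 ± 27.1 CPM in KO and 252 ± 34.1 CPM in WT PAX6+ cells (SD, n = 4 each), a log2 fold change of -0.43 (SE 0.12) with an adjusted p of 0.0580 by edgeR's quasi-likelihood test. It did not pass in TBR2+ (log2 fold change -0.09, adjusted p 0.900) or PAX6-TBR2- cells (-0.44, adjusted p 0.814) either. The counts cover the whole gene, and which exons were deleted is not stated here, so this is no test of the deletion. The sort was checked by 11 marker lists: the 9 radial glia markers summed to 2854 to 3335 CPM in WT PAX6+ cells, 441 to 629 in WT TBR2+ cells and 209 to 333 in WT PAX6-TBR2- cells. The 8 neuron markers summed to 345 to 414 CPM, 5957 to 7563 CPM and 7452 to 9027 CPM in the same WT groups, so the list was high in TBR2+ libraries too, although its member Stmn2 averaged 24.1 CPM in WT TBR2+ against 226 CPM in WT PAX6-TBR2- cells. The 6 interneuron markers summed to 431 to 1036 CPM in KO and 327 to 896 CPM in WT PAX6-TBR2- cells, against 4.73 to 27.7 CPM in the other WT libraries.

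The genes lie on 4 chromosomes of GRCm38, placed with GENCODE M21. Alk (ENSMUSG00000055471) is at chr17:71868972-72604627, minus strand, and Mdk (ENSMUSG00000027239) at chr2:91929805-91932297, minus strand. Ptprz1 (ENSMUSG00000068748) at chr6:22875502-23052916, plus strand, and Ptn (ENSMUSG00000029838) at chr6:36714929-36810220, minus strand, share chromosome 6 with Emx1 (85187438 to 85204462), the locus of the Cre allele. Sdc3 (ENSMUSG00000025743) at chr4:130792537-130826319, plus strand, shares chromosome 4 with Prdm16 (154316125 to 154636873). Sequence linked to the Cre allele, which KO alone carried, cannot be told apart from genotype for Ptprz1 and Ptn, while the floxed allele on chromosome 4 was shared by both genotypes. Sdc3 overlaps the antisense gene Gm12970 over 48 exon bases, and that gene had 0 to 4 counts per library.

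Upstream stretches are shown, for Ptprz1, which was lowest in WT TBR2+ cells, and Sdc3, which was highest there. Each is the 250 bases before the gene's start, on the plus strand of GRCm38.p6, from RefSeq, where 4 of the 5 genes had an entry. The starts of Ptprz1 and Sdc3 are also the GENCODE starts. Those of Alk and Ptn differ from the GENCODE starts, and their stretches are not shown. Capitals mark GC boxes, searched as GGGCGG and, on the other strand, CCGCCC.
Ptprz1 (chr6:22875252-22875501): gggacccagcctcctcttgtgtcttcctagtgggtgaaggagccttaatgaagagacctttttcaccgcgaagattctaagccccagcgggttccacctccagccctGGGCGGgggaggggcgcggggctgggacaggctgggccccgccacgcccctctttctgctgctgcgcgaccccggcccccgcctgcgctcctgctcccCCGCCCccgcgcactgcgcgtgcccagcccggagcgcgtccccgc
Sdc3 (chr4:130792287-130792536): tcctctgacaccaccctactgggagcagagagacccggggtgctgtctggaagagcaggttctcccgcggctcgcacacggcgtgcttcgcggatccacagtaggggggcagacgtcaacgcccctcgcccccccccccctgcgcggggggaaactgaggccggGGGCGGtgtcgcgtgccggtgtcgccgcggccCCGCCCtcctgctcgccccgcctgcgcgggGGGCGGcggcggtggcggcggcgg
The Ptprz1 stretch holds 2 GC boxes and the Sdc3 stretch 3, and at least 1 is found in 32.7% of the 32851 upstream windows of the same length. Neither holds TATAAA on either strand, which 12.4% of windows do. The ratio of observed to expected CpG was 0.698 in the Ptprz1 stretch and 0.877 in the Sdc3 stretch, against a median of 0.374 over all windows. Both were above that median, although in WT TBR2+ cells the transcript of Ptprz1 was at its lowest and that of Sdc3 at its highest.

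In WT cells the receptors and ligands each had a profile of their own across the 3 populations. Ptprz1 was abundant in PAX6+ and PAX6-TBR2- cells and low in TBR2+ cells, Ptn was highest in PAX6+ cells, Mdk and Sdc3 were highest in TBR2+ cells, and Alk was lowest in PAX6-TBR2- cells. The background of such contrasts is high: 63.2% of genes tested passed between WT PAX6+ and WT TBR2+ cells, 49.0% between WT TBR2+ and WT PAX6-TBR2- cells, and 66.6% between WT PAX6+ and WT PAX6-TBR2- cells. Alk and Ptprz1 were chosen on values that include the WT TBR2+ libraries, so their levels there are set beside the other populations with no test. Of Ptn, Mdk and Sdc3, 3 passed between PAX6+ and TBR2+ cells and 2 between TBR2+ and PAX6-TBR2- cells, and 4 of all 5 genes passed between PAX6+ and PAX6-TBR2- cells, counts to be read only against that background. Here a gene passed at an adjusted p (Benjamini-Hochberg, over all genes tested) under 0.05 by edgeR's quasi-likelihood test, and fold changes put the earlier stage of the lineage over the later.

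**Figure D1:**
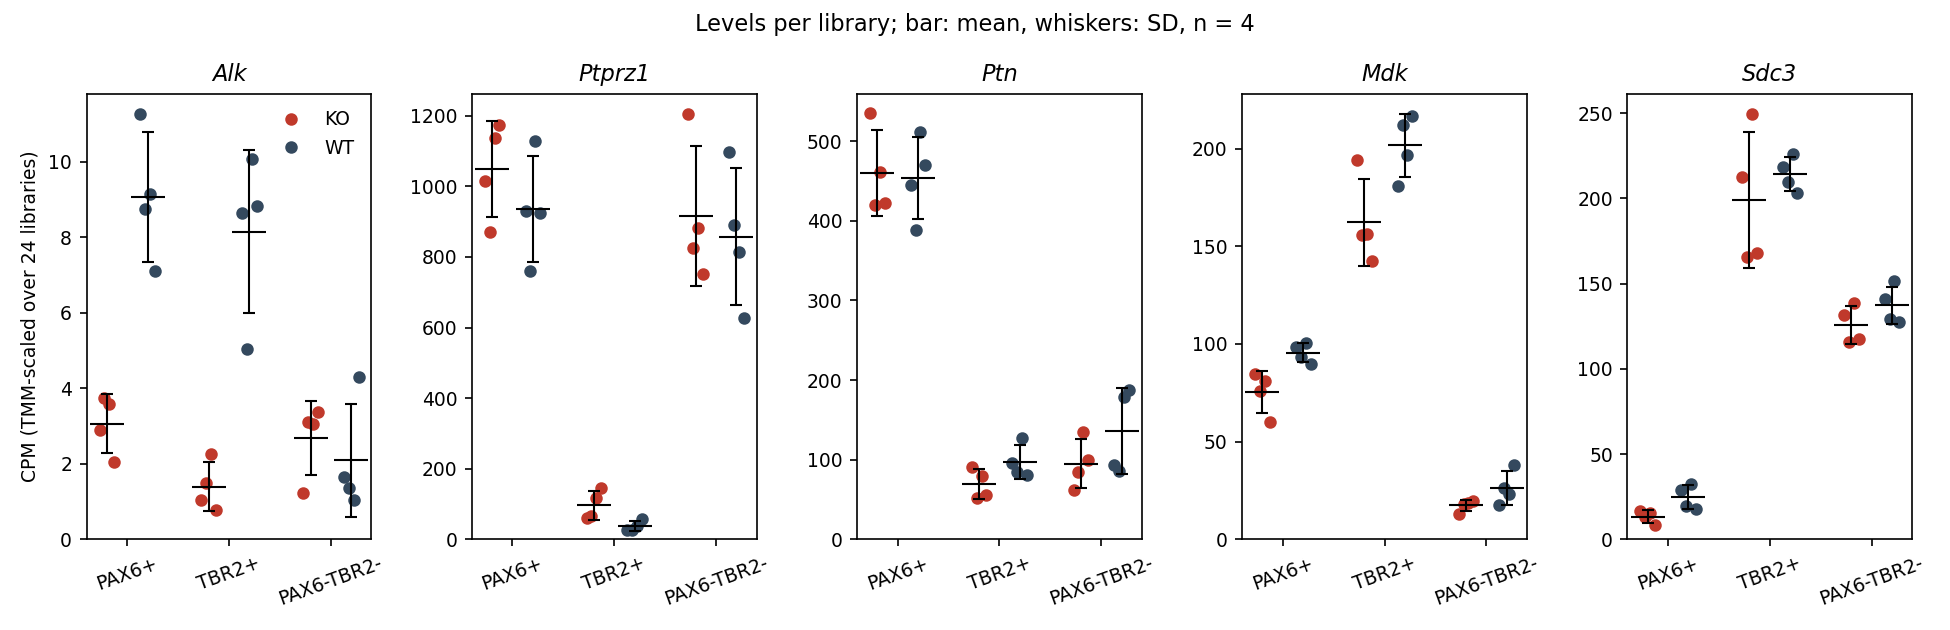
CPM of the 5 genes in each library (vertical axis, linear, from 0, a scale per gene) for KO and WT libraries of the 3 sorted populations; bars are means and whiskers SD (n = 4). Alk is lower in every KO than in every WT library of PAX6+ and TBR2+ cells, and Ptprz1 in TBR2+ cells is far below its level in the other populations in both genotypes.

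Ptprz1, the receptor phosphatase, had 931, 759, 1128 and 924 CPM in the 4 WT PAX6+ libraries. It had 27.3, 27.9, 37.8 and 58.3 CPM in WT TBR2+ libraries and 1098, 890, 814 and 628 CPM in WT PAX6-TBR2- libraries. The TBR2+ libraries thus all lay far under the rest, and the PAX6+ and PAX6-TBR2- libraries overlapped. The level was 24.5-fold higher in PAX6+ than in TBR2+ cells (log2 fold change 4.62, SE 0.21) and 22.9-fold lower in TBR2+ than in PAX6-TBR2- cells (log2 fold change -4.52, SE 0.24). Between PAX6+ and PAX6-TBR2- cells the log2 fold change was 0.12 (SE 0.15) with an adjusted p of 0.502 by edgeR. The sum of radial glia markers did not follow Ptprz1: in WT PAX6-TBR2- cells it was at most 333 CPM, under the 441 CPM that was the lowest in WT TBR2+ cells. Its members went both ways. Pax6 averaged 241 CPM in WT TBR2+ and 29.9 CPM in WT PAX6-TBR2- cells, and Slc1a3 28.1 CPM and 39.7 CPM. Of 8 markers tested between these groups, 3 were higher in TBR2+ cells, 2 were lower and 3 did not pass, where 49.0% of all genes passed. The 5 markers of oligodendrocyte precursors, another cell type known for Ptprz1, summed to at most 8.16 CPM in any group and to 3.13 to 5.12 CPM in WT PAX6-TBR2- cells. Interneuron markers were high in the same PAX6-TBR2- libraries. They summed to 327, 427, 684 and 896 CPM in the WT libraries, in the reverse order of Ptprz1 there. The part of any of these cell types in the Ptprz1 level was not tested.

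**Figure D2:**
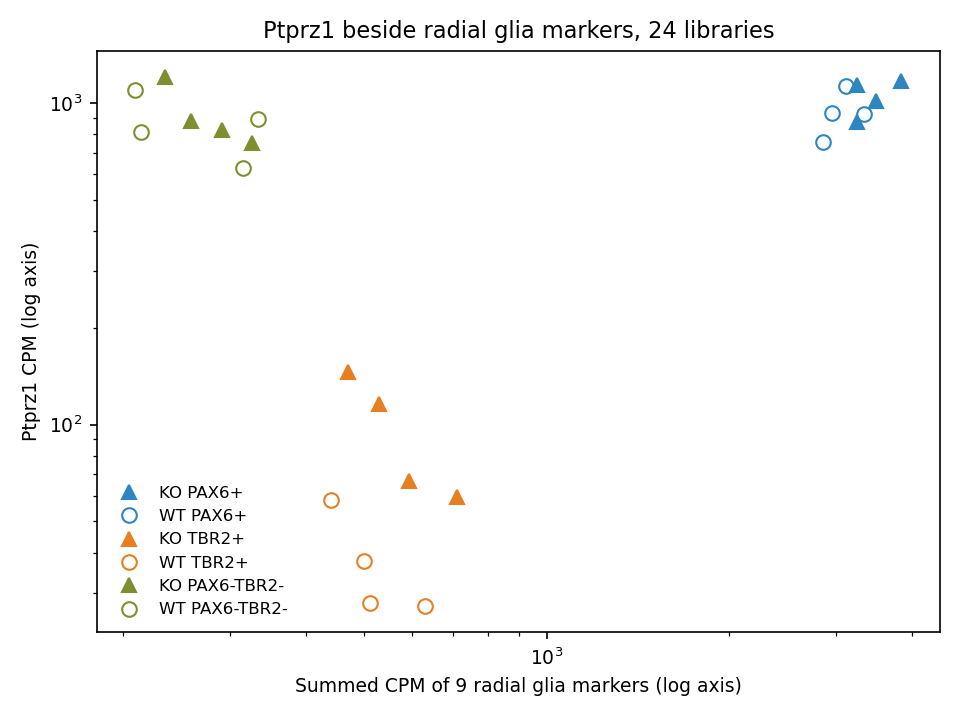
Ptprz1 CPM (vertical, log axis) against the summed CPM of 9 radial glia markers (horizontal, log axis) in each of the 24 libraries, with triangles for KO and open circles for WT. PAX6-TBR2- libraries have Ptprz1 as high as PAX6+ libraries at a much lower marker sum, and TBR2+ libraries, at 441 to 711 CPM of markers, have the lowest Ptprz1, higher in KO than in WT.

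Alk, the receptor kinase, was expressed at a low level, with 5 to 146 counts per library, so its values carry more counting error than those of the others. It had 11.3, 8.74, 9.16 and 7.11 CPM in WT PAX6+ libraries and 8.65, 5.06, 10.1 and 8.84 CPM in WT TBR2+ libraries, ranges that overlapped. In WT PAX6-TBR2- libraries it had 1.66, 1.35, 1.05 and 4.31 CPM, with the deepest library, replicate 4, the highest. The level was 3.27-fold higher in TBR2+ than in PAX6-TBR2- cells (log2 fold change 1.71, SE 0.38) and 3.56-fold higher in PAX6+ than in PAX6-TBR2- cells (log2 fold change 1.83, SE 0.34, adjusted p 0.000211, edgeR). Between PAX6+ and TBR2+ cells the log2 fold change was 0.15 (SE 0.22).

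Of the ligands, Ptn had 445, 389, 511 and 470 CPM in WT PAX6+ libraries, against 95.6, 85.1, 127 and 80.4 CPM in WT TBR2+ libraries and 94.0, 86.0, 179 and 187 CPM in WT PAX6-TBR2- libraries. The PAX6+ libraries stood apart from both other groups, which overlapped each other. Ptn was 4.63-fold higher in PAX6+ than in TBR2+ cells (log2 fold change 2.21, SE 0.14, adjusted p 2.4e-10, edgeR) and 3.26-fold higher than in PAX6-TBR2- cells (log2 fold change 1.70, SE 0.22, adjusted p 4.4e-06, edgeR). Between TBR2+ and PAX6-TBR2- cells the log2 fold change was -0.52 (SE 0.23, adjusted p 0.0730). That value passed without WT TBR2+ replicate 3 (adjusted p 0.0367), without WT PAX6-TBR2- replicate 1 (0.0242) or 2 (0.0142), and when genes with low counts were kept (5.7e-05).

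Mdk, the other ligand, had 98.6, 93.2, 100.5 and 90.0 CPM in WT PAX6+ libraries and 181, 212, 197 and 217 CPM in WT TBR2+ libraries. In WT PAX6-TBR2- libraries it had 17.6, 26.5, 23.5 and 38.0 CPM. The 3 groups did not overlap, with TBR2+ the highest and PAX6-TBR2- the lowest. Mdk was 2.13-fold lower in PAX6+ than in TBR2+ cells (log2 fold change -1.09, SE 0.09, adjusted p 1.9e-08, edgeR) and 7.33-fold higher in TBR2+ than in PAX6-TBR2- cells (log2 fold change 2.87, SE 0.18, adjusted p 7.4e-09, edgeR). It was also 3.47-fold higher in PAX6+ than in PAX6-TBR2- cells (adjusted p 2.6e-07).

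Sdc3, the proteoglycan receptor, had 28.8, 19.7, 32.3 and 17.8 CPM in WT PAX6+ libraries and 219, 209, 226 and 203 CPM in WT TBR2+ libraries. In WT PAX6-TBR2- libraries it had 141, 129, 151 and 128 CPM. Again the 3 groups did not overlap, in an order that places PAX6+ cells lowest. Sdc3 was 8.74-fold lower in PAX6+ than in TBR2+ cells (log2 fold change -3.13, SE 0.16, adjusted p 1.7e-11, edgeR) and 1.55-fold higher in TBR2+ than in PAX6-TBR2- cells (log2 fold change 0.63, SE 0.09, adjusted p 5.0e-05, edgeR). It was 5.60-fold lower in PAX6+ than in PAX6-TBR2- cells (adjusted p 2.4e-09).

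Levels of different genes can be set side by side as CPM per kilobase of exon. In WT PAX6+ cells Ptn led at a mean of 132 CPM per kilobase, followed by Mdk at 72.2 and Ptprz1 at 65.7, whose libraries overlapped, then Sdc3 at 4.11 and Alk at 1.17. In WT TBR2+ cells Mdk led at 152 CPM per kilobase, ahead of Sdc3 at 35.8 and Ptn at 28.3, whose libraries overlapped, then Ptprz1 at 2.65 and Alk at 1.05. In WT PAX6-TBR2- cells the order was Ptprz1 at 60.2 CPM per kilobase, Ptn at 39.8, Sdc3 at 22.9, Mdk at 19.9 and Alk at 0.270, and each of the first 4 overlapped its neighbour in that order. The Mdk to Ptn ratio of these per-length levels was thus 0.497 to 0.621 in WT PAX6+ libraries, 4.00 to 6.997 in WT TBR2+ libraries and 0.340 to 0.800 in WT PAX6-TBR2- libraries. Alk was the lowest of the 5 in every WT population.

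KO and WT were then compared in PAX6+ cells, whose libraries were not among those described in the choice of the genes. That choice was still made with earlier results of these data known, so these tests are not independent of it. Alk and Sdc3 fell, at 2.93-fold and 1.84-fold lower, while Ptprz1, Ptn and Mdk did not pass the test. Over all genes 3.64% passed in PAX6+ cells, 1.19% as lower and 2.45% as higher; 2 of the 5 genes passed, both lower. With the replicate number as a block 1045 genes passed in place of 517.

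Alk had 2.89, 3.75, 3.60 and 2.04 CPM in KO PAX6+ libraries, against 11.3, 8.74, 9.16 and 7.11 CPM in WT PAX6+ libraries. Every KO library lay below every WT library, at 24 to 49 counts in KO against 70 to 146 counts in WT. The log2 fold change was -1.55 (SE 0.24, adjusted p 0.000877, edgeR), and the gene passed in each of the 15 alternatives, with log2 fold changes of -1.67 to -1.40 when a library was left out. In a bulk sample fewer cells of a type and less RNA per cell cannot be told apart.

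Sdc3 had 16.6, 13.1, 15.4 and 8.41 CPM in KO PAX6+ libraries, against 28.8, 19.7, 32.3 and 17.8 CPM in WT PAX6+ libraries. The groups did not overlap, but the highest KO library and the lowest WT library were 16.6 and 17.8 CPM. The log2 fold change was -0.88 (SE 0.22, adjusted p 0.0311, edgeR). The call was lost without WT PAX6+ replicate 1 (adjusted p 0.111), WT PAX6+ replicate 3 (0.142) or KO PAX6+ replicate 2 (0.0888). Some markers of later stages, where Sdc3 is high, moved the same way in the same libraries. Eomes had 40.2, 59.6, 49.7 and 35.3 CPM in KO and 61.2, 77.9, 109 and 61.8 CPM in WT PAX6+ libraries, and its log2 fold change was -0.74 (SE 0.19, adjusted p 0.0358, edgeR). Dcx, a microtubule protein of young neurons, had 30.5, 32.9, 25.7 and 23.5 CPM in KO and 84.9, 34.5, 53.3 and 55.6 CPM in WT PAX6+ libraries (log2 fold change -1.01, SE 0.21, adjusted p 0.00810, edgeR). Over the whole lists, 2 of 6 intermediate progenitor markers (Eomes and Insm1) and 1 of 8 neuron markers (Dcx) fell. The summed levels overlapped, at 293 to 400 CPM in KO and 312 to 465 CPM in WT for the intermediate progenitor list and 355 to 374 CPM in KO and 345 to 414 CPM in WT for the neuron list, and no marker of either list was at 0. Of the other lists, Gad2 (interneuron, log2 fold change -1.68, adjusted p 0.0186), Aqp4 (astrocyte, -1.66, 0.0180) and Col1a2 (meninges, -2.06, 0.0124) also fell and Slc1a3 (radial glia, 0.43, 0.0354) rose by edgeR in PAX6+ cells. The summed levels were 6.63 to 8.72 CPM in KO and 7.44 to 27.7 CPM in WT for the 6 interneuron markers, 2.37 to 4.64 CPM in KO and 5.60 to 10.4 CPM in WT for the 4 astrocyte markers, and 1.02 to 3.06 CPM in KO and 3.01 to 4.67 CPM in WT for the 4 meninges markers. The 9 radial glia markers summed to 3248 to 3849 CPM in KO and 2854 to 3335 CPM in WT. The part of any of these in the Alk and Sdc3 values was not tested.

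Mdk had 84.4, 75.9, 81.0 and 60.1 CPM in KO PAX6+ libraries, against 98.6, 93.2, 100.5 and 90.0 CPM in WT PAX6+ libraries. The groups did not overlap, yet the log2 fold change of -0.34 (SE 0.11) had an adjusted p of 0.153 by edgeR. With the replicate number as a block, which the numbers allow in these cells, the adjusted p was 0.00945 at a log2 fold change of -0.35. Ptprz1 averaged 1049 ± 137 CPM in KO and 936 ± 151 CPM in WT PAX6+ cells (SD, n = 4 each), a log2 fold change of 0.17 (SE 0.12, adjusted p 0.653, edgeR). Ptn averaged 460 ± 53.8 CPM in KO and 454 ± 51.0 CPM in WT PAX6+ cells (SD, n = 4 each), a log2 fold change of 0.03 (SE 0.10, adjusted p 0.964, edgeR). The most abundant receptor and the most abundant ligand of PAX6+ cells thus had overlapping levels in the 2 genotypes, while the least abundant receptor was 2.93-fold lower in KO.

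**Figure D3:**
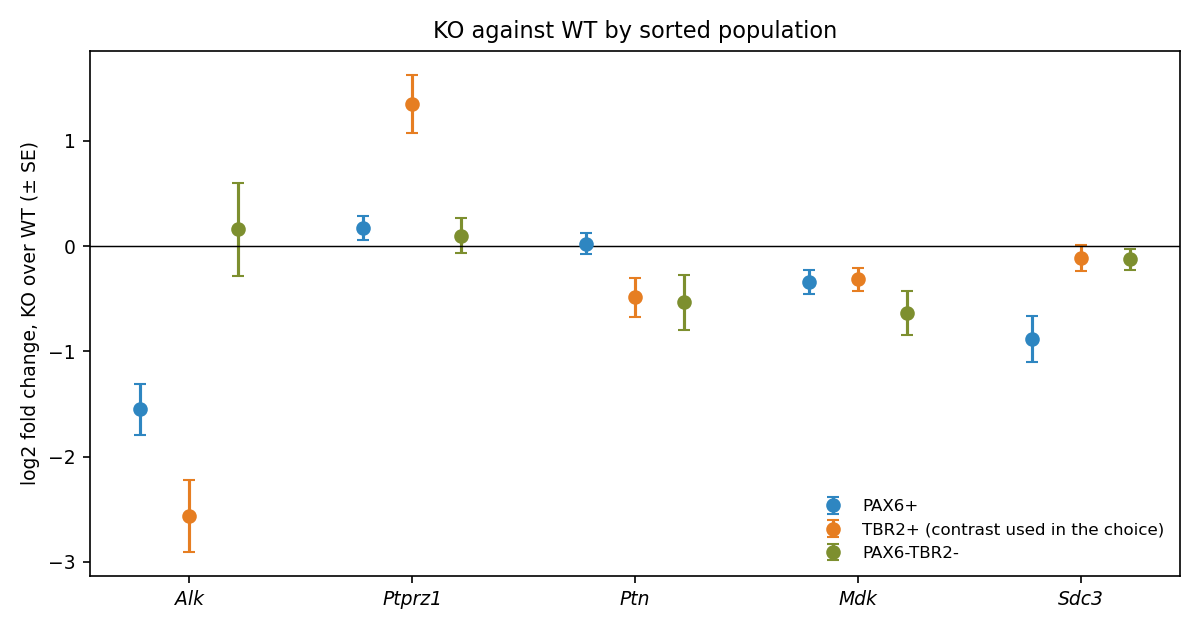
Log2 fold change of KO over WT (vertical, points with SE bars) of the 5 genes in each sorted population, each point from 4 KO and 4 WT libraries. Alk is at -1.55 in PAX6+ and -2.56 in TBR2+ cells and at 0.16 in PAX6-TBR2- cells, and Ptprz1 is raised in TBR2+ cells, the contrast used in the choice.

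In TBR2+ cells, the contrast behind the choice, Alk had 1.04, 1.49, 2.27 and 0.785 CPM in KO libraries, against 8.65, 5.06, 10.1 and 8.84 CPM in WT libraries. These are 5 to 12 counts in KO and 31 to 57 counts in WT, with no overlap. The log2 fold change was -2.56 (SE 0.34), and -2.87 to -2.36 when a library was left out. Ptprz1 had 59.6, 66.8, 116 and 146 CPM in KO TBR2+ libraries, against 27.3, 27.9, 37.8 and 58.3 CPM in WT TBR2+ libraries. The groups met at 59.6 CPM in KO and 58.3 CPM in WT, and the log2 fold change was 1.35 (SE 0.28). Even the highest KO TBR2+ library, at 146 CPM, was far under the lowest of the other populations, 628 CPM.

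Beside these values, the 9 radial glia markers summed to 470 to 711 CPM in KO and 441 to 629 CPM in WT TBR2+ cells, and the 8 neuron markers to 5671 to 7946 CPM in KO and 5957 to 7563 CPM in WT, with none of either list at 0. The 6 intermediate progenitor markers summed to 1338 to 1694 CPM in KO and 1480 to 1810 CPM in WT. The 4 Cajal-Retzius markers summed to 341 to 508 CPM in KO and 102 to 497 CPM in WT. In TBR2+ cells none of the 7 radial glia, 8 neuron, 6 intermediate progenitor and 4 Cajal-Retzius markers tested passed between the genotypes. Over all genes 1.76% passed there, so no call in lists of this size is at the background. The median log2 fold changes were 0.22, 0.09, -0.07 and 0.71 in the same order, against 0.00 over all genes. Radial glia markers ran from -0.07 (Pax6) to 0.69 (Slc1a3, adjusted p 0.0786, edgeR), and neuron markers from -0.43 (Tubb3) to 1.08 (Stmn2). Within each genotype the TBR2+ library with the lowest radial glia sum had the highest Ptprz1, as the plot of Ptprz1 against the marker sum shows. The share of mitochondrially encoded genes was 30.5% to 39.3% in KO and 24.7% to 33.1% in WT TBR2+ libraries. The part of any of these in the Alk and Ptprz1 values was not tested.

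The ligands and Sdc3 overlapped between the genotypes in TBR2+ cells. Ptn had 90.7, 51.6, 79.5 and 55.8 CPM in KO and 95.6, 85.1, 127 and 80.4 CPM in WT TBR2+ libraries, a log2 fold change of -0.49 (SE 0.18). Mdk had 194, 156, 156 and 142 CPM in KO and 181, 212, 197 and 217 CPM in WT TBR2+ libraries, a log2 fold change of -0.32 (SE 0.11). Sdc3 averaged 199 ± 39.8 CPM in KO and 214 ± 9.96 CPM in WT TBR2+ cells (SD, n = 4 each), a log2 fold change of -0.11 (SE 0.12). Among the KO libraries replicate 1 was the highest for both ligands.

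As a ratio of per-length levels, Ptprz1 to Alk was 126 to 313 in KO and 44.9 to 70.8 in WT PAX6+ libraries. In TBR2+ cells it was 24.4 to 101 in KO and 1.72 to 3.59 in WT. The genotypes did not overlap in either population, which in TBR2+ cells follows from the choice of the pair. In PAX6-TBR2- cells the ratio was 121 to 529 in KO and 79.3 to 422 in WT, and the groups overlapped. The low ratio of WT TBR2+ cells also rests on libraries used in that choice.

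In PAX6-TBR2- cells none of the 5 genes passed, by edgeR, DESeq2 or limma-voom; 1 had an unadjusted p under 0.05, Mdk at 0.00982 (edgeR's quasi-likelihood test, adjusted p 0.577). Over all genes 0.00774% passed by edgeR, which is 1 gene, Ppp1r14c, named here after its values were seen. Of the 12928 genes tested, 854 had an unadjusted p under 0.05 by edgeR. Alk had 1.24, 3.11, 3.05 and 3.38 CPM in KO, against 1.66, 1.35, 1.05 and 4.31 CPM in WT PAX6-TBR2- libraries, and the groups overlapped, with replicate 1 apart from the other KO libraries and replicate 4 from the other WT libraries. Its log2 fold change was 0.16 (SE 0.44) and ran from -0.06 to 1.02 when a library was left out, with 1.02 without WT PAX6-TBR2- replicate 4. Ptprz1 had 1204, 825, 882 and 752 CPM in KO, against 1098, 890, 814 and 628 CPM in WT PAX6-TBR2- libraries, a log2 fold change of 0.10 (SE 0.17, adjusted p 0.933, edgeR).

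Both ligands had lower means in KO PAX6-TBR2- cells. Mdk had 13.01, 17.99, 18.8 and 19.8 CPM in KO, against 17.6, 26.5, 23.5 and 38.0 CPM in WT PAX6-TBR2- libraries, a log2 fold change of -0.64 (SE 0.21). Ptn had 62.1, 84.2, 135 and 99.7 CPM in KO, against 94.0, 86.0, 179 and 187 CPM in WT PAX6-TBR2- libraries, a log2 fold change of -0.53 (SE 0.26, adjusted p 0.771, edgeR). The groups overlapped for both. Sdc3 averaged 126 ± 11.1 CPM in KO and 137 ± 11.01 CPM in WT PAX6-TBR2- cells (SD, n = 4 each), a log2 fold change of -0.12 (SE 0.10, adjusted p 0.850, edgeR). Interneuron markers, at 431 to 1036 CPM in KO and 327 to 896 CPM in WT, varied within both groups. None of the 6 passed, which is at the background of 0.00774% of all genes. Their median log2 fold change was 0.39, against 0.00 over all genes.

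Whether the KO effect differed between PAX6-TBR2- and PAX6+ cells was tested as an interaction, the effect in PAX6-TBR2- cells minus that in PAX6+ cells. None of the 5 genes passed by edgeR, DESeq2 or limma-voom, where 0.775% of all genes passed by edgeR. By edgeR 2 of the 5 had an unadjusted p under 0.05, as did 1067 of all 15102 genes. The difference for Alk was 1.69 on the log2 scale (SE 0.52, adjusted p 0.226, edgeR). It passed at 2.60 without WT PAX6-TBR2- replicate 4 (adjusted p 0.00642) and at 1.62 when genes with low counts were kept (adjusted p 0.0441). For Sdc3 it was 0.76 (SE 0.25, adjusted p 0.284, edgeR). Whether the difference for Alk passed thus depended on the filter and on WT PAX6-TBR2- replicate 4.

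The other genes of the pathway were taken from 10 lists, which held 100 genes found in the tables. The lists too were chosen with earlier results of these data known. In PAX6+ cells 86 were tested, of which 7 rose and 1 fell in KO, where 2.45% of all genes passed as higher and 1.19% as lower. Blocking on the replicate number gave 13 calls among these 86 and 1045 among all 14212 genes. The median log2 fold change was 0.04 against 0.00 over all genes. In TBR2+ cells 3 of 80 rose and none fell, at a median of 0.04 against 0.00; 1.76% of all genes passed there, 1.10% as higher. In PAX6-TBR2- cells 0 of 81 passed by edgeR and by limma-voom and 2 by DESeq2, with 7 at an unadjusted p under 0.05 by edgeR. Of all 12928 genes there, 1 passed by edgeR, 1 by limma-voom and 25 by DESeq2, and 854 had an unadjusted p under 0.05 by edgeR. Alkal1, Alkal2 and Ltk, the other ALK ligands and the relative of ALK, were too low to be tested in any population.

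Among the 13 other receptors of pleiotrophin and midkine, 2 of 12 tested rose in PAX6+ cells (2.45% of all genes) and 2 of 12 in TBR2+ cells (1.10% of all genes), counts too small to set the list apart. Itga6, the integrin α6 subunit, averaged 348 ± 35.4 CPM in KO and 102 ± 9.44 CPM in WT PAX6+ cells (SD, n = 4 each), a log2 fold change of 1.78 (SE 0.10, adjusted p 4.0e-08, edgeR). In TBR2+ cells it averaged 79.7 ± 3.87 CPM in KO and 40.7 ± 5.57 CPM in WT (SD, n = 4 each; log2 fold change 0.97, adjusted p 0.000374, edgeR). Its effect was smaller in PAX6-TBR2- than in PAX6+ cells (difference -1.18 on the log2 scale), and this difference passed (adjusted p 0.000135, edgeR). Cspg5, the proteoglycan neuroglycan C, had 24.1 ± 2.66 CPM in KO and 14.2 ± 2.30 CPM in WT PAX6+ cells (adjusted p 0.00624, edgeR, n = 4 each). Itga4, the integrin α4 subunit, had 87.8 ± 5.20 CPM in KO and 56.3 ± 4.84 CPM in WT TBR2+ cells (adjusted p 0.00375, edgeR, n = 4 each), a call lost in a fit of all 24 libraries (adjusted p 0.204).

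Of the proteoglycans and their enzymes, Vcan, the matrix proteoglycan versican, rose in PAX6+ cells, at 759 ± 47.8 CPM in KO and 397 ± 53.6 CPM in WT (log2 fold change 0.94, adjusted p 4.7e-05, edgeR, n = 4 each). Gpc3, a glypican, was the list gene that fell, at 3.86 ± 1.76 CPM in KO and 8.53 ± 1.47 CPM in WT PAX6+ cells (log2 fold change -1.16, adjusted p 0.0226, edgeR, n = 4 each). It lost its call without WT PAX6+ replicate 2 or 3 or KO PAX6+ replicate 2 or 3, at an adjusted p of up to 0.0846. Ust, which sulfates uronic acid in chondroitin and dermatan sulfate, had 9.05 ± 1.94 CPM in KO and 3.03 ± 0.598 CPM in WT PAX6+ cells (log2 fold change 1.57, adjusted p 0.000555, edgeR, n = 4 each). Hs2st1, the heparan sulfate 2-O-sulfotransferase, had 351 ± 58.1 CPM in KO and 232 ± 27.6 CPM in WT PAX6+ cells (log2 fold change 0.60, adjusted p 0.00792, edgeR, n = 4 each). The sulfated chains made by such enzymes are the sites at which both ligands bind.

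Among partners of PTPRZ1, the adhesion protein Nrcam had 285 ± 29.6 CPM in KO and 190 ± 4.92 CPM in WT PAX6+ cells (log2 fold change 0.59, adjusted p 0.000992, edgeR, n = 4 each), a call also lost in the fit of all libraries (adjusted p 0.121). Magi3, a scaffold protein and reported substrate of the phosphatase, had 87.6 ± 14.2 CPM in KO and 57.4 ± 5.80 CPM in WT PAX6+ cells (log2 fold change 0.61, adjusted p 0.00927, edgeR, n = 4 each). Cntn2, a contactin, had 540 ± 61.0 CPM in KO and 292 ± 107 CPM in WT TBR2+ cells (log2 fold change 0.88, adjusted p 0.0219, edgeR, n = 4 each). That call was lost in 5 of 8 fits without a library (WT TBR2+ replicates 1, 2 and 3, KO TBR2+ replicates 2 and 3), at an adjusted p of up to 0.0909. The Cntn2 call was also lost in the fit of all 24 libraries. None of the 13 ALK adaptors passed by edgeR, DESeq2 or limma-voom in any population, with at most 1 at an unadjusted p under 0.05 in each. None of the transcripts downstream of ALK and ERK passed by edgeR (7 tested in PAX6+ cells, 5 in each other population), with 2 at an unadjusted p under 0.05 in PAX6+ cells and 1 in each other population, and 2 passed by DESeq2 in PAX6+ cells. By edgeR 3.64%, 1.76% and 0.00774% of all genes were called in PAX6+, TBR2+ and PAX6-TBR2- cells. No call by edgeR in lists of this size is thus at the background and says nothing of the signalling. DESeq2 called 684 of all 14212 genes in PAX6+ cells. An unadjusted p under 0.05 by edgeR was found for 1730 of 14212 genes in PAX6+, 1566 of 12687 in TBR2+ and 854 of 12928 in PAX6-TBR2- cells. Of the transcripts downstream of ALK and ERK, Etv5 was at a log2 fold change of 0.61 (SE 0.17, adjusted p 0.0583, edgeR) and Mycn at -0.38 (SE 0.11, adjusted p 0.0671, edgeR) in PAX6+ cells, where Alk fell.

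**Figure D4:**
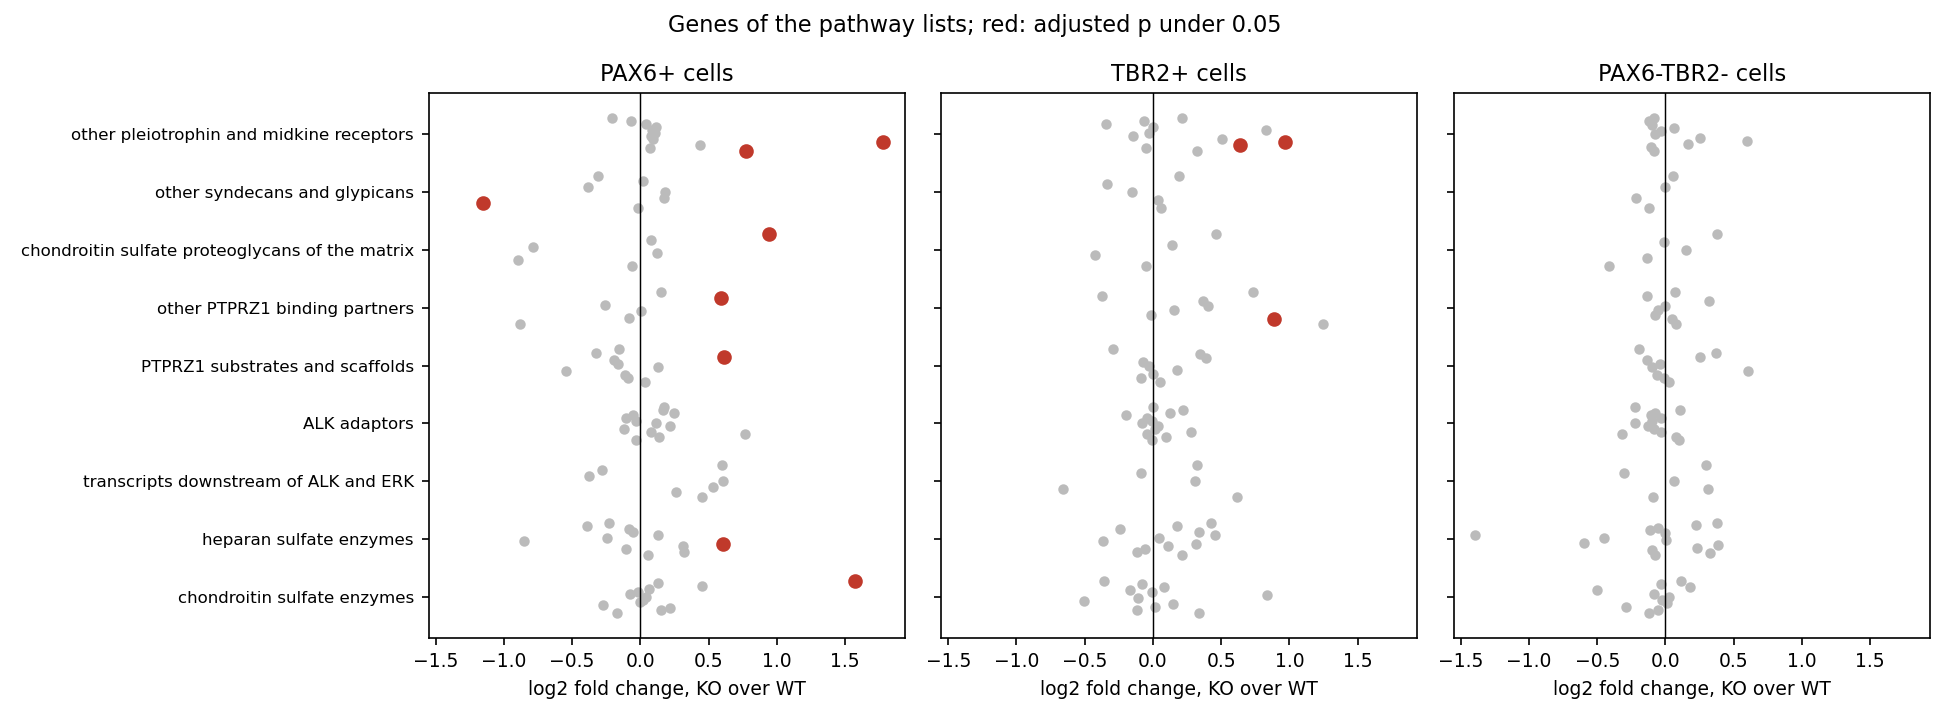
Log2 fold change of KO over WT (horizontal) of each tested gene of the pathway lists (rows; spread within a row is for legibility) in PAX6+, TBR2+ and PAX6-TBR2- cells, with genes that passed the test in red. The red points, 8 in PAX6+ cells, 3 in TBR2+ cells and 0 in PAX6-TBR2- cells, lie on the higher side apart from Gpc3.

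Across the WT populations the partners of PTPRZ1 were among the most divergent list genes. Tnc, the matrix protein tenascin-C, averaged 372 ± 123 CPM in WT PAX6+ and 5.94 ± 2.43 CPM in WT TBR2+ cells (log2 fold change 5.94, adjusted p 4.2e-12, edgeR, n = 4 each). Notch2, reported as a midkine receptor, averaged 759 ± 108 CPM in WT PAX6+ and 33.8 ± 5.35 CPM in WT TBR2+ cells (log2 fold change 4.47, adjusted p 6.4e-14, edgeR, n = 4 each). Cntn2 averaged 292 ± 107 CPM in WT TBR2+ and 2360 ± 221 CPM in WT PAX6-TBR2- cells (log2 fold change -3.03, adjusted p 1.2e-08, edgeR, n = 4 each), and L1cam, another adhesion protein, 5.66 ± 4.43 CPM in WT PAX6+ and 472 ± 56.4 CPM in WT TBR2+ cells (log2 fold change -6.33, adjusted p 1.4e-11, edgeR, n = 4 each). Of the lists, 65 of 87 genes passed between PAX6+ and TBR2+ cells, 49 of 81 between TBR2+ and PAX6-TBR2- cells and 75 of 89 between PAX6+ and PAX6-TBR2- cells, where 63.2%, 49.0% and 66.6% of all genes passed in the same order. The shares of the lists were 74.7%, 60.5% and 84.3%, above that background, which was itself high. Whether the lists differ from other genes was not tested. Ptprz1 stood in PAX6-TBR2- cells beside high Cntn2 and in PAX6+ cells beside high Tnc, and was low in TBR2+ cells where Mdk led the ligands. Its partners as a list did not share that profile. Of 7 tested between WT PAX6+ and WT TBR2+ cells, 3 were higher in PAX6+ and 4 in TBR2+ cells. L1cam was among the latter, as was Nfasc at 61.7 CPM in WT PAX6+ and 438 CPM in WT TBR2+ cells. All 8 tested between WT TBR2+ and WT PAX6-TBR2- cells were lower in TBR2+ cells.

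The genes most like each member over the 24 libraries were named by Pearson's r of log2(CPM + 1), over 14897 genes; the libraries share populations and batches, so the values describe the profile only. Smoc1 (r = 0.843), Smim7 (0.791) and Tgfa (0.789) were the most like Alk. Slc5a3 (0.983), Camk1d (0.978) and Ptprj (0.976) were the most like Ptprz1, and Pfas (0.965), Phf19 (0.964) and Pmp22 (0.963) the most like Ptn. Nt5dc2 (0.986), Ltbp3 (0.986) and Klf3 (0.977) were the most like Mdk, and Mgat5b (0.989), Scrt2 (0.987) and Atp2b2 (0.986) the most like Sdc3. Alk had no gene as close as the other members did, at counts that were the lowest of the 5. Among the members themselves r ran from -0.899 for Ptn with Sdc3 to 0.560 for Ptprz1 with Ptn, and it was -0.144 for Alk with Ptprz1.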

How the data were processed

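RNA was amplified by single primer isothermal amplification (Ovation) without molecular identifiers, per the labels' protocols, so counting error is a lower limit. Per the submitters' processing notes, tools included cutadapt, STAR and featureCounts, with the build mm10; their versions, the annotation and the strandedness were not stated in the sources used. The deposited tables hold raw counts per gene, with 2 lanes per library, which were summed. The deposited normalized tables hold signal values with the form of counts divided by size factors; 100% of values came out as whole reads within a tolerance of 1e-06, and these reads were an alternative. Of 39017 genes, 37693 were named with GENCODE M21.

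The members and lists were chosen with earlier results of these data known. Groups came from sample titles. KO and WT, and WT populations, were compared by edgeR 4.0.16 under R 4.3.3 with TMM scaling and filterByExpr (two-sided quasi-likelihood test over all genes, Benjamini-Hochberg, threshold 0.05), after tests on simulated data. The SE is the log2 fold change over the square root of F. Alternatives were each library left out, the replicate number as a block, DESeq2 1.42.0 and its size factors, limma 3.58.1 voom, no filter, and a fit of all libraries. Recovered reads equalled the raw counts in PAX6+ cells but were 1.44 to 1.70 times the raw counts of a group in the other populations, where 1 of 16 columns equalled a raw library, so the raw tables there appear to hold part of the reads behind the normalized values. Replicate numbers come from the titles; deviations of same-numbered KO and WT libraries from their group means correlated at 0.186 to 0.437 in PAX6+ cells, where all 4 pairs were over 0.1, so the blocked value is given beside results it changes there. Up to 4 list genes per list and comparison were eligible to be named, those that passed with the largest change, and for each member the 3 most correlated genes; of the WT contrasts a few of these are named. Etv5, Mycn and the markers named singly were picked after their values were seen. Exon length is the union of GENCODE exons.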

Additional observations from a re-analysis of the deposited data

Results flagged for a closer look

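Alk in the KO PAX6-TBR2- libraries had 1 value far from the others: replicate 1 had 1.24 CPM, at 8 counts, and the other 3 had 3.05 to 3.38 CPM. Its gap to the nearest library was 0.847 of the group's range, above the 95% critical value of Dixon's test for 4 libraries. In all 30 combinations of gene and group were examined, and chance flags about 1 in 20.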

How the results depend on the processing

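No alternative reversed the direction of a member, or of a list gene named between KO and WT, that passed; other genes were compared by counts alone. With a replicate block the calls numbered 1045 in PAX6+, 720 in TBR2+ and 153 in PAX6-TBR2- cells, in place of 517, 223 and 1. Without the filter they numbered 728 in TBR2+ and 38 in PAX6-TBR2- cells and 219 for the interaction, in place of 117. DESeq2 gave 363 in TBR2+ and 25 in PAX6-TBR2- cells, and the fit of all libraries 6 in PAX6-TBR2- cells. Leaving out 1 library gave 121 (without WT TBR2+ replicate 3) to 420 (without KO TBR2+ replicate 1) calls in TBR2+ and 1 to 3 in PAX6-TBR2- cells. In TBR2+ and PAX6-TBR2- cells the replicate numbers did not meet the rule for pairing, with lowest correlations of 0.0468 and 0.0799. The block gave calls for Ptn (log2 fold change -0.50, adjusted p 0.0112) and Mdk (-0.60, 0.0239) in PAX6-TBR2- cells, for Mdk in PAX6+ cells (-0.35) and for Sdc3 in the interaction (0.75, 0.0476), and changed no other member's call. Pathway list calls in TBR2+ cells, 3 in the report, numbered 9 with the block, 8 without the filter, 8 by DESeq2 and 5 without KO TBR2+ replicate 1; in PAX6-TBR2- cells, 0 in the report, they numbered 6 with the block and 1 without the filter. Sdc3 in PAX6+ cells ran from -1.003 to -0.71 with a library left out, Ptn between WT TBR2+ and PAX6-TBR2- cells from -0.69 to -0.32 (-0.54 without the filter), and the interaction of Alk from 1.47 to 2.60 (1.62 without the filter). The cause of these shifts was not tested. Alk, at 5 to 146 counts, had the lowest counts of the 5 genes. WT PAX6-TBR2- replicate 4, far deeper than the rest, had the highest Alk value of its group, at 120 counts. It also had the highest sum of interneuron markers there, 896 CPM, and the part of either in its Alk value was not tested.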
